A study of Mus musculus with 12 samples.

Results

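The eukaryotic translation initiation factors are the proteins that bring the small ribosomal subunit, the initiator tRNA and an mRNA together before protein synthesis starts. Their genes were taken from the count files as the symbols that begin with Eif and a digit from 1 to 6, without the kinases (ak), the binding proteins (bp) and the transporter (enif) that share the prefix. This rule, which uses names and no measured value, gave 47 of the 20661 genes, and left out 8. By complex, 4 genes encode eIF2 subunits, 5 eIF2B, 14 eIF3, 12 eIF4 proteins and 12 the other factors.

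In the textbook order of events, eIF2 carries the initiator tRNA to the small subunit as a complex with GTP, and eIF2B is the exchange factor that recharges eIF2 with GTP after each round. The large scaffold eIF3 binds the small subunit together with eIF1, eIF1A and eIF5, which guard the choice of the start codon. The eIF4 proteins bind the cap (eIF4E), bridge it to the ribosome (eIF4G) and unwind the leader of the mRNA (eIF4A, with eIF4B and eIF4H), and eIF5B and eIF6 act where the large subunit joins or is held back. Some of these genes, Eif3e, Eif3f, Eif3h and Eif4b among them, are often counted as 5′-TOP genes by general background knowledge, although the list of known 5′-TOP genes used in the study names no Eif gene. Such mRNAs begin with a C followed by a run of pyrimidines, as those of ribosomal proteins do, and are translated according to growth signals.

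The cells were mouse embryonic fibroblasts (MEFs) at passage 4, all transduced with a lentiviral short hairpin RNA and selected with puromycin. WT-shSCR MEFs were wildtype with a scrambled hairpin, WT-shARF MEFs were wildtype with a hairpin against ARF, and Arf-/- shSCR MEFs (B6.129X1-Cdkn2atm1Cjs/KaiJ) carried the scrambled hairpin in addition to a germline change in which a neo cassette stands in place of exon 1β of Cdkn2a, which leaves Ink4a. ARF is the tumor suppressor that shares the Cdkn2a gene with INK4A, and the comparisons address how its loss bears on mRNA levels and on translation. The labels give C57BL/6J as the wildtype strain whereas the methods give B6129SF2/J, so the strain background cannot be told apart from the genotype in the Arf-/- shSCR comparisons. Each of the 3 groups had 2 RNAseq and 2 ribosome profiling libraries, 12 in all. Ribosome profiling sequences the mRNA stretches that ribosomes shield from nuclease, here RNase T1. Neither the labels nor the methods state whether replicates came from separate embryos or cultures, so the p-values measure the spread between these libraries, which may be technical. In bulk samples of this kind, fewer cells of a type and less RNA per cell cannot be told apart.

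RNAseq libraries held 1578627 to 3989908 counts on genes, and ribosome profiling libraries held 2544319 to 5157572. Initiation factor genes made up between 0.951% and 1.32% of a library. Whole-gene counts of the targeted gene, Cdkn2a, went against the label in both assays. Cdkn2a RNA stood at 644 and 668 CPM (counts relative to library size, with TMM factors) in the libraries labelled WT-shARF. The values were 44.8 and 41.9 CPM in WT-shSCR and 27.7 and 32.2 CPM in Arf-/- shSCR. Cdkn2a footprints were 533 and 741 CPM in the ribosome profiling libraries labelled WT-shARF. They were 93.4 and 66.2 CPM in WT-shSCR and 39.6 and 34.4 CPM in Arf-/- shSCR. By immunoblot, the paper shows knockdown of ARF protein, and it states that the hairpin leaves INK4A expression unaffected. Counts per gene do not separate ARF from INK4A, so they cannot tell whether ARF RNA itself fell. The cause of the high counts was not tested. Libraries labelled WT-shARF are therefore called by their label, and values in them are given as under the label. All 9 fibroblast markers were detected in every group, with a summed RNA level of 16491 to 25029 CPM, although Pdgfra stood at only 3.77 and 2.58 CPM in WT-shSCR. Values of a pair are given with replicate 1 first.

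The first bases of these mRNAs are shown because a 5′-TOP mRNA is defined by them. RefSeq promoter windows (GRCm38.p6) held 46 annotated starts for 37 of the 47 genes. Eif1a, Eif2b3, Eif3e, Eif3h, Eif3i, Eif3j2, Eif4e1b, Eif4e3, Eif4g2 and Eif6 had no entry. Each line below gives 30 bases, 10 before the annotated start and 20 from it on, on the strand of the gene, and capitals mark a C that lies within 5 bases of the start and is followed by 4 or more pyrimidines (C or T) without a break.
Eif3f, eIF3 subunit f, chr7:108934405-108934434, plus strand: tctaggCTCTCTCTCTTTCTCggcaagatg
Eif3l, eIF3 subunit l, chr15:79075213-79075242, plus strand: gagttCTTCTTCCgctctctcccacgggct
Eif2s3x, eIF2γ, chrX:94212632-94212661, minus strand: gagcattttCCTTTTCTCTCCgagcaagat
Eif2s3y, the Y-linked eIF2γ, chrY:1010585-1010614, plus strand: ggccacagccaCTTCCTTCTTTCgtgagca
Eif2b5, eIF2Bε, chr16:20498807-20498836, plus strand: ctctttCTCTCCCTgcaactacaccttcgc
Eif4g1, the eIF4F scaffold, chr16:20672717-20672746, plus strand: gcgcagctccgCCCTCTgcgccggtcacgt
Eif4b, the eIF4A cofactor, chr15:102073763-102073792, plus strand: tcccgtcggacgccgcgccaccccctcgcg
Eif4a1, the eIF4F helicase, chr11:69672404-69672433, minus strand: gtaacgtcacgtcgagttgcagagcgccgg
Eif2s1, eIF2α, chr12:78862062-78862091, plus strand: ggttgggcgaagcgcacgctgaggagcttc
Only the strand of the gene was searched, and overlapping matches were counted once per start.

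Such a run was present at 9 of the 46 starts, or 19.6%, next to 18.3% of all 32851 annotated starts and 40.8% of the 76 starts of ribosomal protein genes. The longest was the 15-base run of Eif3f, and Eif2s3x and Eif2s3y followed with 12 bases each. Eif2b2, Eif3b and Eif1ad held the other runs, of 5 to 8 bases. Annotated starts can differ from the starts used in MEFs, and windows without capitals, such as those of Eif4b, Eif4a1 and Eif2s1, show only that these letters are not at the annotated position. The genes lie on 17 chromosomes. Eif2b5 and Eif4g1 are 159 kb apart on chromosome 16, and Eif4a1 and Eif5a are 244 kb apart on chromosome 11.

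Levels were first compared within WT-shSCR MEFs, per kilobase of coding sequence, taken as the union of coding exons. The helicase gene Eif4a1 and Eif5a, which encodes the hypusine-modified factor now known mainly for elongation, stood above the other 45. Eif5a reached 1354 and 1335 CPM per kb of RNA and 1915 and 2108 CPM per kb of footprints in the replicates, and Eif4a1 reached 1165 and 1077 CPM per kb of RNA and 1233 and 1199 CPM per kb of footprints. With this length, both genes had more of each than any of the other 45 in each WT-shSCR library. The order depends on the length, since Eif1 has 508 nt in the union and 339 nt in its longest coding sequence. With the longest coding sequence of each gene, Eif1 footprints were above those of Eif4a1 in WT-shSCR replicate 2. At the other end, Eif3j1 and Eif3j2, near-identical copies that both encode eIF3j, were listed at 0 in all 12 libraries, where reads without a unique place were not counted. Eif4e1b, an oocyte cap-binding protein, had 0 to 3 counts per library. Eif4e3 and Eif5a2 had no more than 12 RNA counts in any library.

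**Figure D1:**
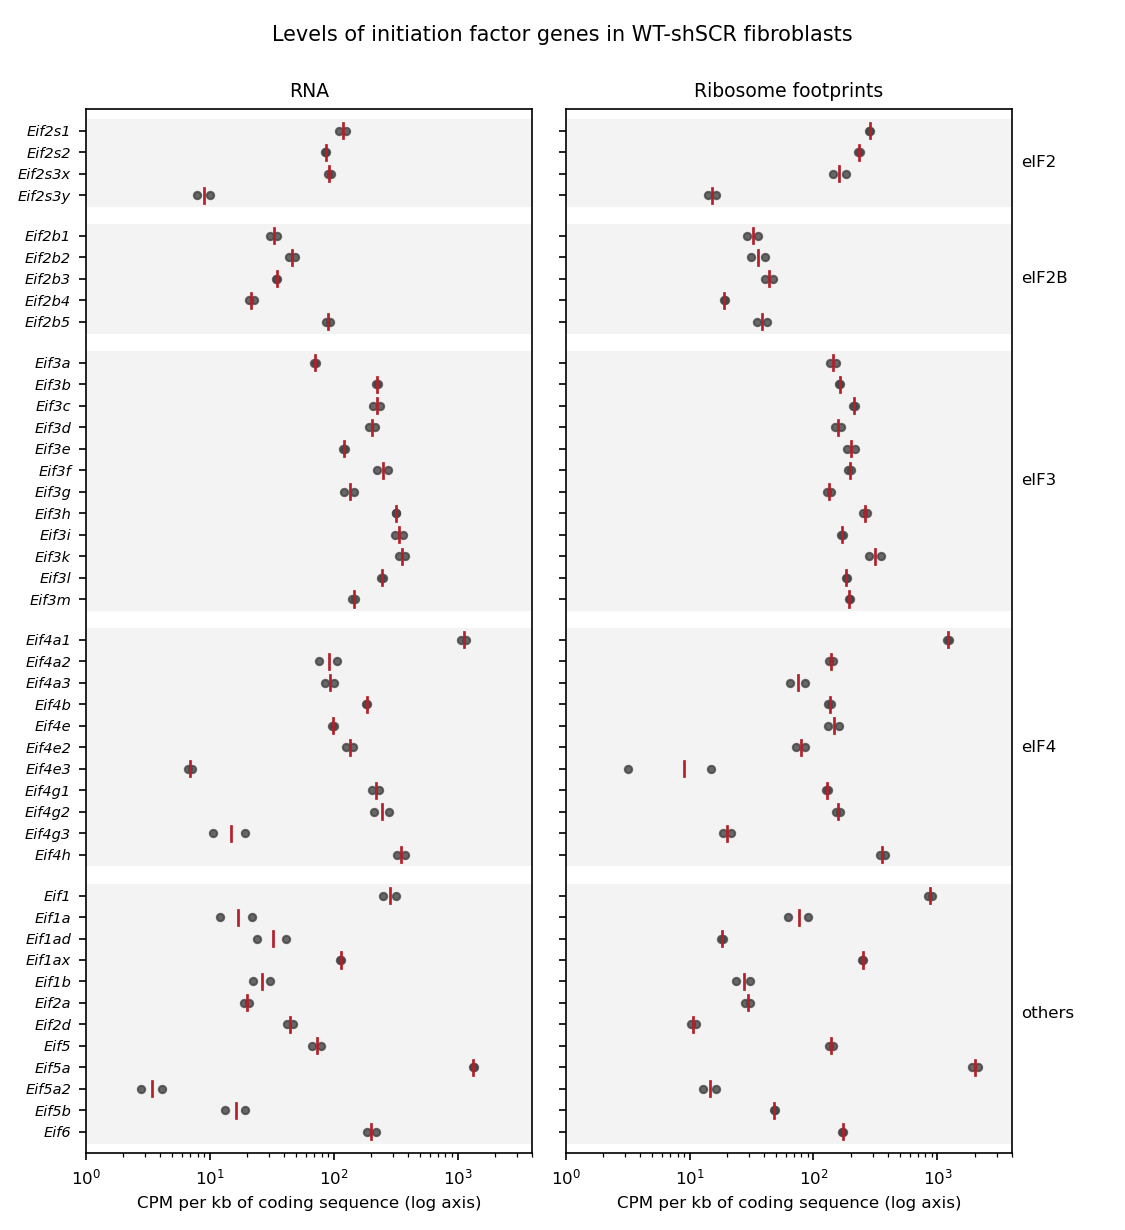
Levels of initiation factor genes in WT-shSCR MEFs, as CPM per kilobase of coding sequence (union of coding exons, log axis), for RNA on the left and ribosome footprints on the right. Points are the 2 replicates, red ticks their mean, and rows are grouped by complex. Eif4a1 and Eif5a lie farthest to the right in both panels, and the eIF3 subunits lie closer together in footprints than in RNA.

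Subunits of one complex are needed in fixed proportions, and their levels per length were set side by side. Over the 12 detected eIF3 subunits, RNA per kb differed 5.07-fold between Eif3k, the highest, and Eif3a, the lowest. Footprints per kb differed 2.36-fold, between Eif3k and Eif3g. The RNA ratio was 5.45 and 4.70 in the replicates taken singly, and the footprint ratio 2.18 and 2.57, so the footprint ratio was the smaller in each pair of libraries. The same order held for eIF2B, with ratios of 4.13 for RNA and 2.30 for footprints. It did not hold for the eIF2 subunits Eif2s1, Eif2s2 and Eif2s3x, whose RNA differed 1.38-fold and whose footprints differed 1.75-fold. In Arf-/- shSCR MEFs the eIF3 ratios were 3.83 for RNA and 2.65 for footprints, and under the WT-shARF label they were 3.35 and 2.35. With the longest coding sequence of each gene as its length, the eIF3 ratios in WT-shSCR were 5.46 and 2.54.

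Translation efficiency (TE) is the share of footprints that an mRNA takes over its share of RNA, on a log2 scale on which 0 means equal shares. In WT-shSCR MEFs it was above 0 for 15 of the 44 genes tested and below 0 for 10, at an adjusted p under 0.05. Unless DESeq2 is named, every adjusted p here is from the edgeR quasi-likelihood test, with Benjamini-Hochberg adjustment over all genes tested. Among all genes tested the shares were 19.4% above and 20.2% below. Without either ribosome profiling library of WT-shSCR, 6 lay below 0. The median was 0.05 over the initiation factor genes and -0.03 over all genes. With 1 library left out, the median of the initiation factor genes was 0.07 to 0.13, highest without RNAseq replicate 1. Footprints were cut by RNase T1, whereas RNA was fragmented by heat in carbonate buffer. Alignments without a unique place made up 46.3% to 52.9% in ribosome profiling and 79.2% to 81.4% in RNAseq. The part of these assay differences in the TE of single genes was not tested.

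**Figure D2:**
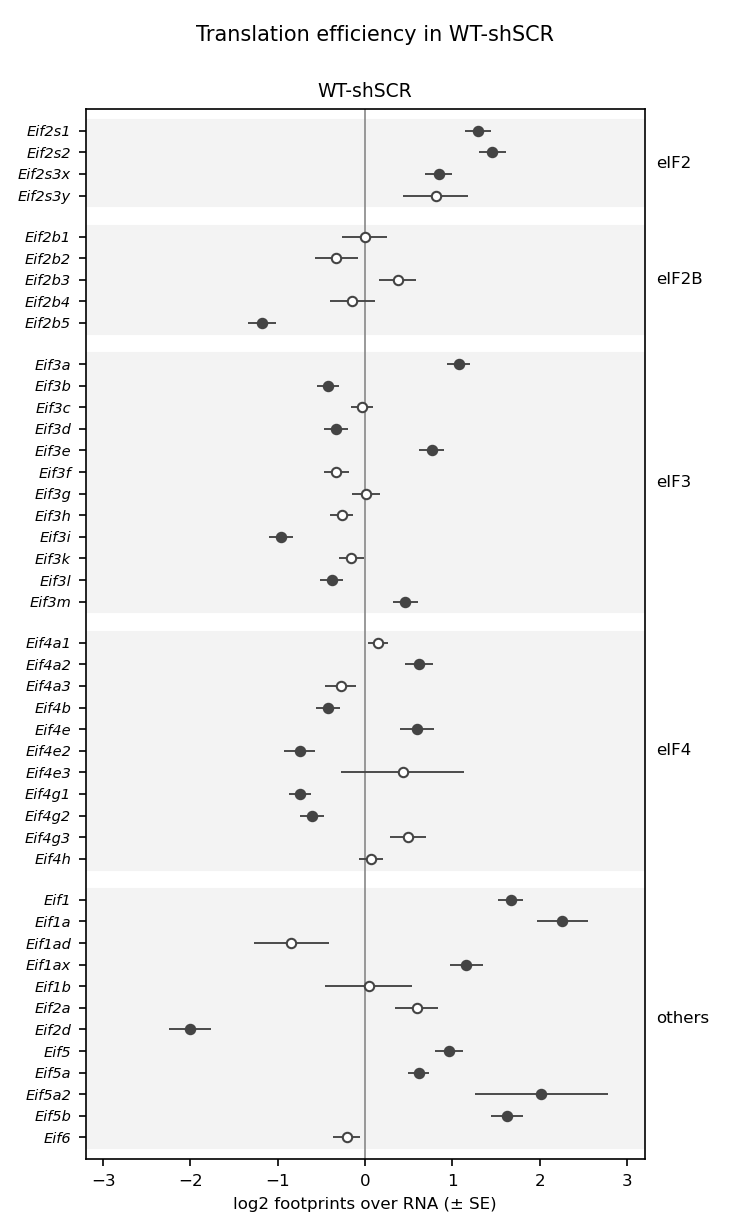
TE of the 44 tested initiation factor genes in WT-shSCR MEFs, as log2 of footprints over RNA with its standard error. Filled points passed an adjusted p under 0.05, and rows are grouped by complex. All 4 eIF2 genes lie above 0, and Eif2d lies lowest at -2.01.

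All 4 eIF2 subunit genes lay above 0, and 3 of them passed the test, with Eif2s2 (eIF2β) highest at 1.46 and Eif2s3y lowest at 0.81. Among eIF2B genes, the catalytic subunit gene Eif2b5 was the 1 that passed, at -1.18, and Eif2b3 was highest at 0.37. The eIF3 subunits were divided, as 3 passed above 0 and 4 below, of which Eif3d was lost with DESeq2 (adjusted p = 0.140). Eif3a, the largest subunit, was highest at 1.07, and Eif3i lowest at -0.96. For eIF4, 2 genes were above and 4 below, from Eif4a2, a paralog of Eif4a1, at 0.61 (adjusted p = 0.0515 without WT-shSCR RNAseq replicate 2) to Eif4e2, a cap-binding protein linked to repression, at -0.75. The scaffold gene Eif4g1 stood at -0.75, whereas its partner Eif4e stood at 0.59, a call that was lost with DESeq2 (adjusted p = 0.0835).

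The widest range was among the other factors, of which 7 lay above 0 and 1 below. Eif1a, which encodes an eIF1A protein, had 11.7 and 21.3 CPM in WT-shSCR, 10.7 and 18.5 CPM under the label and 18.9 and 22.3 CPM in Arf-/- shSCR for RNA. Its footprints were 60.6 and 87.5 CPM in WT-shSCR, 80.1 and 79.3 CPM under the label and 83.1 and 80.8 CPM in Arf-/- shSCR, above its RNA in every group, and its TE in WT-shSCR was 2.26. Eif1, the start codon fidelity factor, stood at 1.67, with 3 pseudogenes named after it that could share reads. Eif2d, which delivers tRNA without GTP, was at the other end, with 78.3 and 88.4 CPM in WT-shSCR, 84.7 and 65.6 CPM under the label and 65.5 and 55.4 CPM in Arf-/- shSCR for RNA. Footprints of Eif2d were only 21.0 and 19.3 CPM in WT-shSCR, 27.1 and 23.8 CPM under the label and 29.8 and 24.6 CPM in Arf-/- shSCR, below its RNA in every group, for a TE of -2.01. Its coding exons overlap those of Rassf5, so its counts are uncertain.

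Genes with a pyrimidine run at an annotated start had a median TE of -0.38 in WT-shSCR (9 genes, 1 above and 4 below 0 by the test), and those with a start but no run had a median of 0.46 (27 tested, 12 above and 4 below). Of all 10693 genes tested, 19.4% were above 0 and 20.2% below by the test. Ribosomal protein genes had a median TE of -0.33 over 79 genes. These medians are a description, and the difference between them was not tested.

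Compared with WT-shSCR, the initiation factor genes of Arf-/- shSCR MEFs gave 15 calls in footprints, all of them rises, and 4 in RNA. Footprints were higher for 15 of 44 genes tested, against 9.57% of all 10737 genes, and lower for 0 of 44, against 8.95% of all genes. In this edgeR fit, none of these genes was below 0 in footprints at an unadjusted p under 0.05 either, against 1594 of all genes tested. With all 3 groups in one fit, 2 of these genes were, against 1688 of all 10995 genes. DESeq2 called 15 higher and 0 lower. RNA was higher for 3 of 43 genes and lower for 1, against 3.94% and 3.99% of 10659 genes. The median log2 difference was 0.26 in footprints and 0.21 in RNA, while that of all genes was -0.00087 in footprints and -0.0038 in RNA.

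In the libraries labelled WT-shARF there were 11 calls in footprints, again all rises, and 5 in RNA. Footprints were higher for 11 of 44 genes and lower for 0, against 5.63% and 5.5% of 10307 genes. At an unadjusted p under 0.05, 18 were higher and 0 lower, against 1227 and 1193 of all genes tested. DESeq2 called 9 of the initiation factor genes higher and 0 lower. RNA was higher for 4 of 42 genes and lower for 1, against 3.11% and 4.17% of 10503 genes. The medians were 0.17 in footprints and 0.08 in RNA. Both comparisons share the WT-shSCR libraries and are not independent of each other.

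These footprint calls rest on few libraries. With either WT-shSCR replicate left out, which leaves 1 control library, 0 of the 44 genes and 0 of all 11391 or 11340 genes tested were called in the Arf-/- shSCR comparison by edgeR. Leaving out an Arf-/- shSCR replicate kept the count at 13 or 12. Under the WT-shARF label the count was 2 without labelled replicate 1 and 1 without replicate 2, and 8 and 7 without WT-shSCR replicate 1 and 2. Eif4h was the only one of these 11 genes that kept its call with each of the 4 libraries left out in turn. A lone library was assumed to vary like those of the other group. In Arf-/- shSCR footprints, log2 differences were above 0 for 37 of the 44 genes with all libraries. They were above 0 for 38 without WT-shSCR replicate 1 and for 35 without replicate 2.

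Other sets of genes moved with the groups. Of all genes tested, 3.94% rose and 3.99% fell in RNA of Arf-/- shSCR, and 9.57% and 8.95% in footprints. Under the WT-shARF label the shares were 3.11% and 4.17% in RNA, and 5.63% and 5.5% in footprints. All 7 cell cycle genes (Mki67, Top2a, Ccna2, Ccnb1, Cdk1, Mcm2 and Mcm5) rose in RNA and in footprints in both comparisons with WT-shSCR, and their summed RNA level was 1001 to 1026 CPM in WT-shSCR, 1798 to 1836 CPM under the WT-shARF label and 1997 to 2096 CPM in Arf-/- shSCR. Of 7 macrophage genes, 6 fell in RNA in Arf-/- shSCR and 3 under the label, as their sum went from 446 to 453 CPM in WT-shSCR to 148 to 202 CPM and 34.6 to 49.4 CPM. Of 7 epithelial and mesothelial genes, 5 were tested and 3 rose in RNA of Arf-/- shSCR. The RNA sum of the 7 was 151 to 175 CPM there against 91.9 to 94.2 CPM in WT-shSCR. Epcam and Upk3b were at 0 in WT-shSCR footprints. Under the label 2 were tested, RNA of Krt19 fell, and the RNA sum of the 7 was 56.3 to 68.4 CPM. Endothelial genes (3) summed to 19.3 to 33.9 CPM over the RNAseq libraries. Muscle genes (3) summed to 95.5 to 106 CPM of RNA in WT-shSCR, 45.6 to 46.6 CPM under the label and 110.0 to 142 CPM in Arf-/- shSCR, and Des fell under the label in RNA (-1.13) and footprints (-0.70). Of the fibroblast genes, Fn1 fell in RNA in Arf-/- shSCR (-1.49) and under the label (-0.73), and Col3a1 rose in both (0.90 and 1.15). Pdgfra RNA rose in Arf-/- shSCR (2.38), and RNA of Col1a1 (0.45) and Postn (0.74) rose under the label. Footprints of these genes gave the same calls and directions, and in addition Col1a1 (-0.24) and Col1a2 (-0.41) fell in Arf-/- shSCR and Vim (0.21) rose under the label. The part of these cells, or of growth rate, in the differences of initiation factor genes was not tested.

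**Figure D3:**
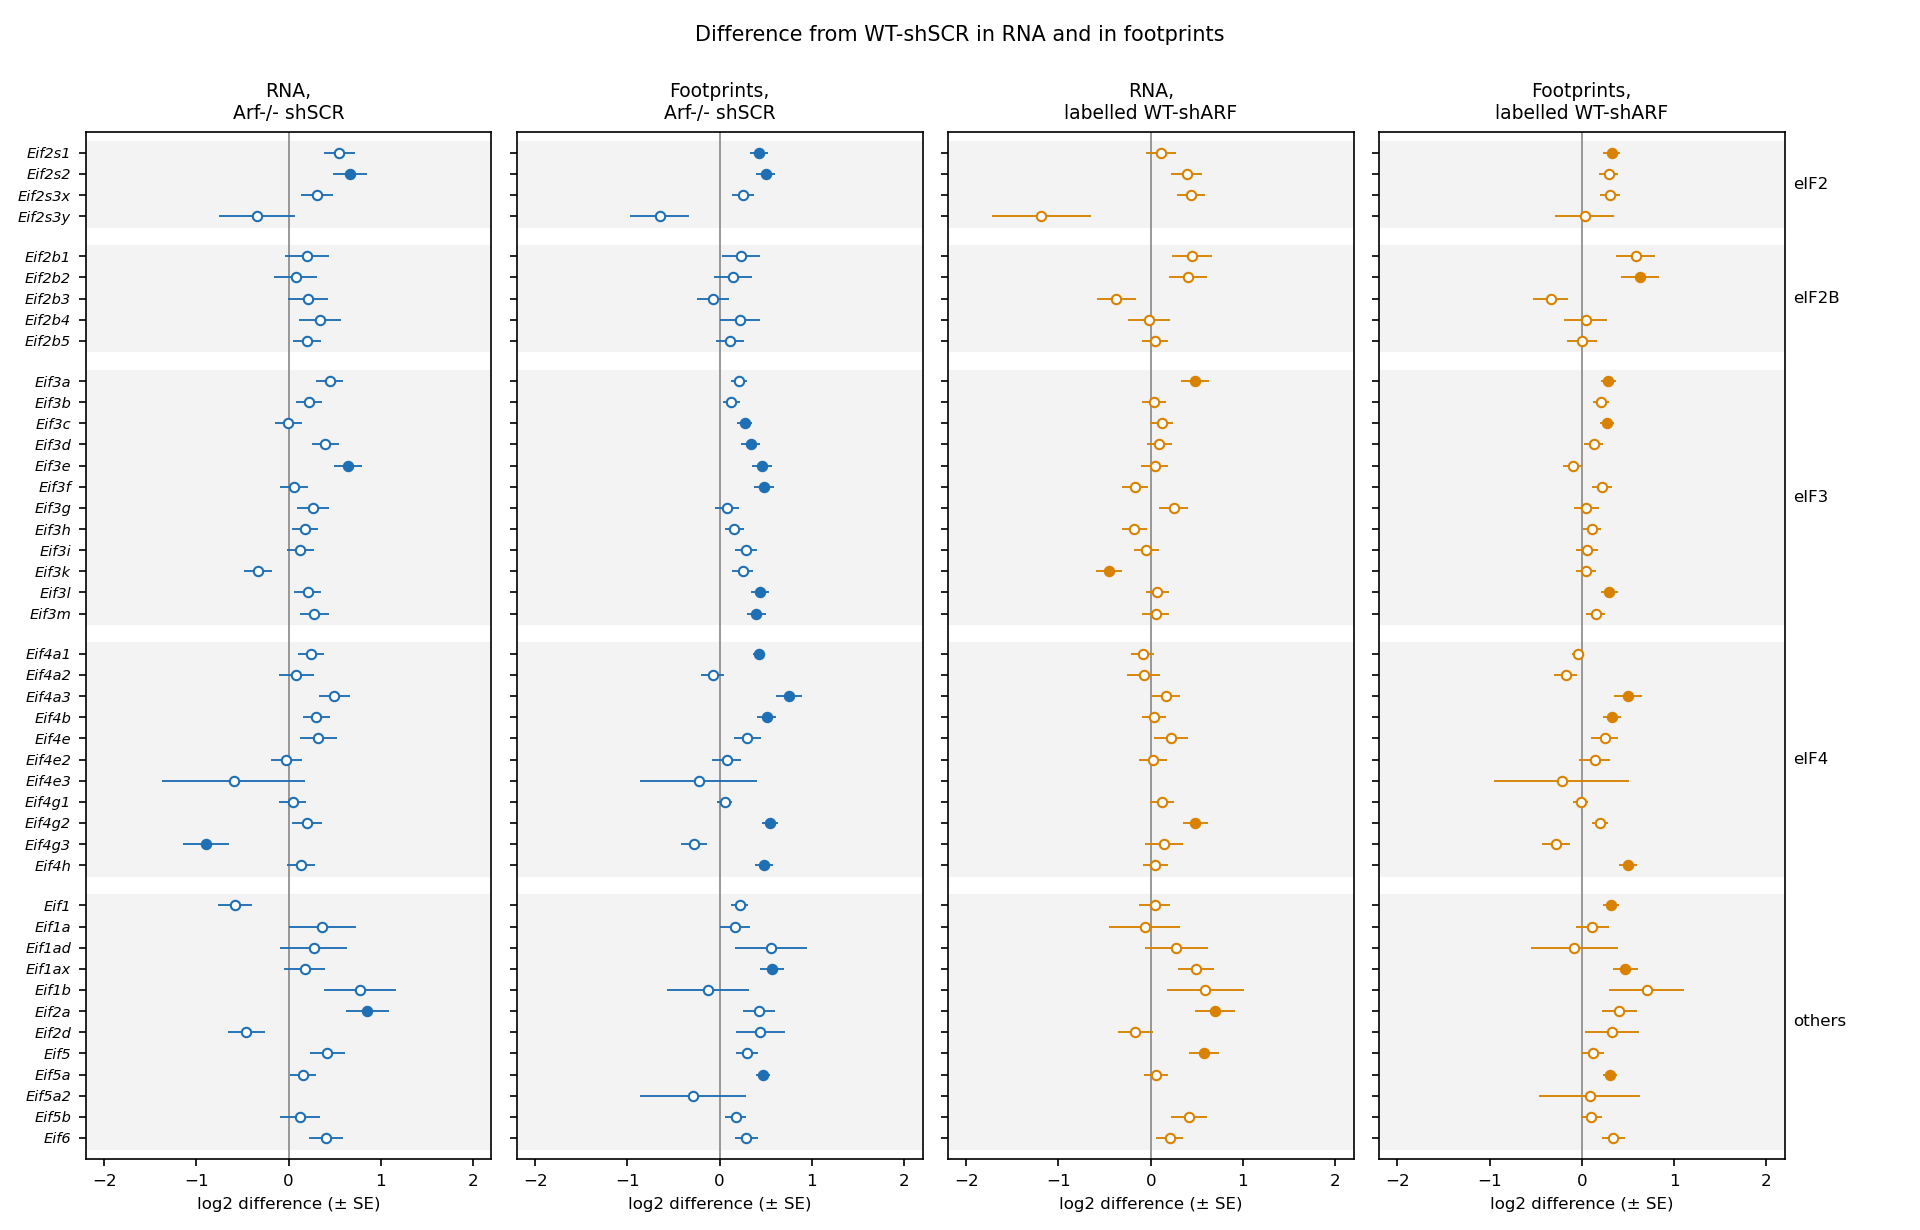
Log2 difference from WT-shSCR with its standard error for each tested initiation factor gene, in RNA and footprints of Arf-/- shSCR MEFs (blue) and of the libraries labelled WT-shARF (orange). Filled points passed an adjusted p under 0.05 and rows are grouped by complex. In footprints of Arf-/- shSCR, all 12 eIF3 genes lie to the right of 0 and 6 of them are filled, and no filled point lies to the left in either footprint panel.

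Among eIF2 genes, footprints of 2 of 4 rose in Arf-/- shSCR MEFs and of 1 of 4 under the WT-shARF label. Of all genes tested, 9.57% and 5.63% rose. Eif2s1 encodes eIF2α, the subunit whose phosphorylation slows initiation. Its footprints were 269.7 and 265 CPM in WT-shSCR, 333 and 335 CPM under the label and 357 and 357 CPM in Arf-/- shSCR. All 4 values outside WT-shSCR exceeded both of its own, with a log2 difference of 0.43 (SE 0.10, adjusted p = 0.00211) in Arf-/- shSCR and a log2 difference of 0.32 (SE 0.10, adjusted p = 0.0239) under the label. For Eif2s1 RNA the levels were 105 and 120.0 CPM in WT-shSCR, 117 and 126 CPM under the label and 171 and 157 CPM in Arf-/- shSCR. Both Arf-/- shSCR values were above all others, but the log2 difference of 0.55 (SE 0.17, adjusted p = 0.0513) did not pass.

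Eif2s2, the eIF2β gene, was the eIF2 gene whose RNA changed, and its RNA was 84.7 and 87.1 CPM in WT-shSCR, 116 and 111 CPM under the label and 123 and 151 CPM in Arf-/- shSCR. The Arf-/- shSCR libraries lay above the rest, with a log2 difference of 0.67 (SE 0.18, adjusted p = 0.0286), a call that was lost with either WT-shSCR replicate left out, without Arf-/- shSCR replicate 2, and with DESeq2 (adjusted p = 0.0963). Footprints of Eif2s2 were 227 and 235 CPM in WT-shSCR, 287 and 277 CPM under the label and 308 and 339 CPM in Arf-/- shSCR. The 3 groups did not overlap, with a log2 difference of 0.50 (SE 0.11, adjusted p = 0.000737) in Arf-/- shSCR and a log2 difference of 0.29 (SE 0.10, adjusted p = 0.0595) under the label.

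The eIF2γ subunit, which holds GTP and the initiator tRNA, has an X-linked and a Y-linked gene in the mouse. Eif2s3x had RNA of 136 and 128 CPM in WT-shSCR, 162 and 195 CPM under the label and 188 and 140.0 CPM in Arf-/- shSCR. Footprints of Eif2s3x were 205 and 261 CPM in WT-shSCR, 292 and 281 CPM under the label and 280.5 and 269 CPM in Arf-/- shSCR. Each value outside WT-shSCR was above both WT-shSCR values, yet neither the RNA (0.31 in Arf-/- shSCR) nor the footprint difference (0.25) passed the test. Eif2s3y was present at lower levels in all groups, with RNA of 11.3 and 14.2 CPM in WT-shSCR, 1.07 and 8.43 CPM under the label and 8.74 and 11.2 CPM in Arf-/- shSCR. The value of 1.07 CPM rests on 2 reads, against 36 reads in the other library of that label. Footprints of Eif2s3y were 22.9 and 20.1 CPM in WT-shSCR, 14.8 and 28.2 CPM under the label and 11.5 and 15.7 CPM in Arf-/- shSCR, which overlap between WT-shSCR and the label. Since the 2 genes are close in sequence, reads without a unique place could be missing from both.

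The eIF2B genes gave 1 call in all. In Arf-/- shSCR, 0 of 5 changed in RNA or footprints by edgeR or DESeq2, and 0 had an unadjusted p under 0.05 in either, with log2 differences of 0.08 to 0.34 in RNA and -0.07 to 0.23 in footprints. The 1 call under the WT-shARF label was for footprints of Eif2b2, the β subunit, at 42.6 and 32.7 CPM in WT-shSCR, 63.9 and 53.9 CPM under the label and 40.0 and 42.7 CPM in Arf-/- shSCR. The labelled libraries were the 2 highest, for a log2 difference of 0.63 (SE 0.21, adjusted p = 0.0475) that was lost with DESeq2 (adjusted p = 0.149) and without either labelled library or WT-shSCR replicate 2. Eif2b5, whose mutations cause vanishing white matter disease, had footprints of 93.1 and 76.9 CPM in WT-shSCR, 81.9 and 88.0 CPM under the label and 90.6 and 91.4 CPM in Arf-/- shSCR, and WT-shSCR overlapped both other groups. Its RNA was 203 and 190.3 CPM in WT-shSCR, 214 and 196 CPM under the label and 223 and 231 CPM in Arf-/- shSCR, highest in Arf-/- shSCR, with a log2 difference of 0.20 (SE 0.15, adjusted p = 0.458) that did not pass. Eif2b3, the γ subunit, had footprints of 70.5 and 60.7 CPM in WT-shSCR, 52.3 and 51.8 CPM under the label and 58.1 and 65.9 CPM in Arf-/- shSCR. Its RNA was 51.6 and 52.2 CPM in WT-shSCR, 40.7 and 39.8 CPM under the label and 66.6 and 53.2 CPM in Arf-/- shSCR. The labelled libraries were the lowest for Eif2b3 in both assays, and neither difference passed (-0.37 in RNA and -0.33 in footprints).

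Of the 12 eIF3 genes tested, 6 rose in footprints of Arf-/- shSCR (Eif3c, Eif3d, Eif3e, Eif3f, Eif3l and Eif3m), and all 12 differences were above 0, from 0.08 to 0.48 with a median of 0.28. Under the WT-shARF label 3 rose (Eif3a, Eif3c and Eif3l), and 11 of 12 were above 0 with a median of 0.14. Of all genes tested, 9.57% rose in footprints of Arf-/- shSCR and 5.63% under the label. Eif3c lost its call without either Arf-/- shSCR replicate (adjusted p = 0.137 and 0.0836), Eif3d without the first (adjusted p = 0.231), and Eif3e and Eif3m without the second (adjusted p = 0.0562 and 0.0593). RNA rose for Eif3e alone of the 12 in Arf-/- shSCR. Under the label it rose for Eif3a and fell for Eif3k.

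Eif3e encodes a subunit at the edge of the eIF3 core and had RNA of 159 and 164 CPM in WT-shSCR, 152 and 179.7 CPM under the label and 241 and 264 CPM in Arf-/- shSCR. Footprints of Eif3e were 249.8 and 287 CPM in WT-shSCR, 239 and 261 CPM under the label and 345 and 386 CPM in Arf-/- shSCR. In both assays the 2 Arf-/- shSCR libraries were above the other 4, which overlapped each other. The log2 difference of 0.64 (SE 0.15, adjusted p = 0.0122) in RNA stood beside a log2 difference of 0.46 (SE 0.10, adjusted p = 0.00166) in footprints, and the RNA call was lost without either WT-shSCR replicate or without Arf-/- shSCR replicate 2. Eif3e has 4 pseudogenes named after it or its older symbol.

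Eif3f, with the longest pyrimidine run, had RNA of 298 and 244 CPM in WT-shSCR, 249.8 and 235 CPM under the label and 279 and 289 CPM in Arf-/- shSCR, where WT-shSCR overlapped both other groups. Its footprints were 216 and 207 CPM in WT-shSCR, 235 and 256 CPM under the label and 299 and 286 CPM in Arf-/- shSCR. Here the 3 groups were apart, with a log2 difference of 0.48 (SE 0.11, adjusted p = 0.00142) in Arf-/- shSCR and a log2 difference of 0.22 (SE 0.11, adjusted p = 0.214) under the label. Eif3h had footprints of 263 and 286 CPM in WT-shSCR, 309 and 285 CPM under the label and 300.1 and 307 CPM in Arf-/- shSCR. Its RNA was 338 and 338 CPM in WT-shSCR, 312 and 289 CPM under the label and 398 and 368 CPM in Arf-/- shSCR. RNA was lowest under the label and highest in Arf-/- shSCR, and no difference from WT-shSCR passed, with 0.18 in RNA and 0.16 in footprints of Arf-/- shSCR.

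The scaffold gene Eif3a had RNA of 279 and 290.3 CPM in WT-shSCR, 322 and 469 CPM under the label and 408 and 368 CPM in Arf-/- shSCR. Footprints of Eif3a were 618 and 550.3 CPM in WT-shSCR, 689 and 733 CPM under the label and 694 and 643 CPM in Arf-/- shSCR. WT-shSCR was lowest in both assays. Under the WT-shARF label the RNA had a log2 difference of 0.48 (SE 0.15, adjusted p = 0.0434) and the footprints a log2 difference of 0.29 (SE 0.08, adjusted p = 0.0197). The RNA call rested on the second labelled library, since without it the log2 difference was 0.18 and the adjusted p 0.756. It was also lost without WT-shSCR replicate 1, with DESeq2 and with all 3 groups in one fit. In Arf-/- shSCR, neither RNA (0.45, adjusted p = 0.0684) nor footprints (0.21, adjusted p = 0.0955) of Eif3a passed.

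Eif3c and Eif3l rose in footprints in both comparisons without a called RNA change. For Eif3c, a core subunit, footprints were 595 and 564 CPM in WT-shSCR, 699 and 700.0 CPM under the label and 700.5 and 687 CPM in Arf-/- shSCR. All 4 values outside WT-shSCR were above it, by 0.27 in Arf-/- shSCR and 0.27 under the label (adjusted p of 0.0196 and 0.0219). RNA of Eif3c was 573 and 642 CPM in WT-shSCR, 669 and 654 CPM under the label and 649 and 563 CPM in Arf-/- shSCR, and WT-shSCR overlapped Arf-/- shSCR. Footprints of Eif3l, whose window above holds an 8-base run, were 315 and 308 CPM in WT-shSCR, 390.0 and 374 CPM under the label and 413 and 424 CPM in Arf-/- shSCR, also without overlap with WT-shSCR, for a log2 difference of 0.44 (SE 0.10, adjusted p = 0.000976) and a log2 difference of 0.30 (SE 0.09, adjusted p = 0.0332).

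Eif3k, a small peripheral subunit, went the other way in RNA, at 266 and 239 CPM in WT-shSCR, 175 and 195 CPM under the label and 201 and 201 CPM in Arf-/- shSCR. Both other groups were below WT-shSCR, and the log2 difference of -0.45 (SE 0.14, adjusted p = 0.0451) under the label passed, whereas the log2 difference of -0.33 (SE 0.15, adjusted p = 0.201) in Arf-/- shSCR did not. The call was lost without either labelled library, without WT-shSCR replicate 1, with DESeq2 (adjusted p = 0.131), without the filter on low counts and with all 3 groups in one fit. Footprints of Eif3k were 196 and 248 CPM in WT-shSCR, 226 and 231 CPM under the label and 275 and 247 CPM in Arf-/- shSCR, and WT-shSCR overlapped both other groups. Eif3i, another peripheral subunit, had RNA of 351 and 306 CPM in WT-shSCR, 325 and 316 CPM under the label and 359 and 360.3 CPM in Arf-/- shSCR. Footprints of Eif3i were 163 and 168 CPM in WT-shSCR, 179 and 166 CPM under the label and 211 and 188 CPM in Arf-/- shSCR, and no difference passed.

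**Figure D4:**
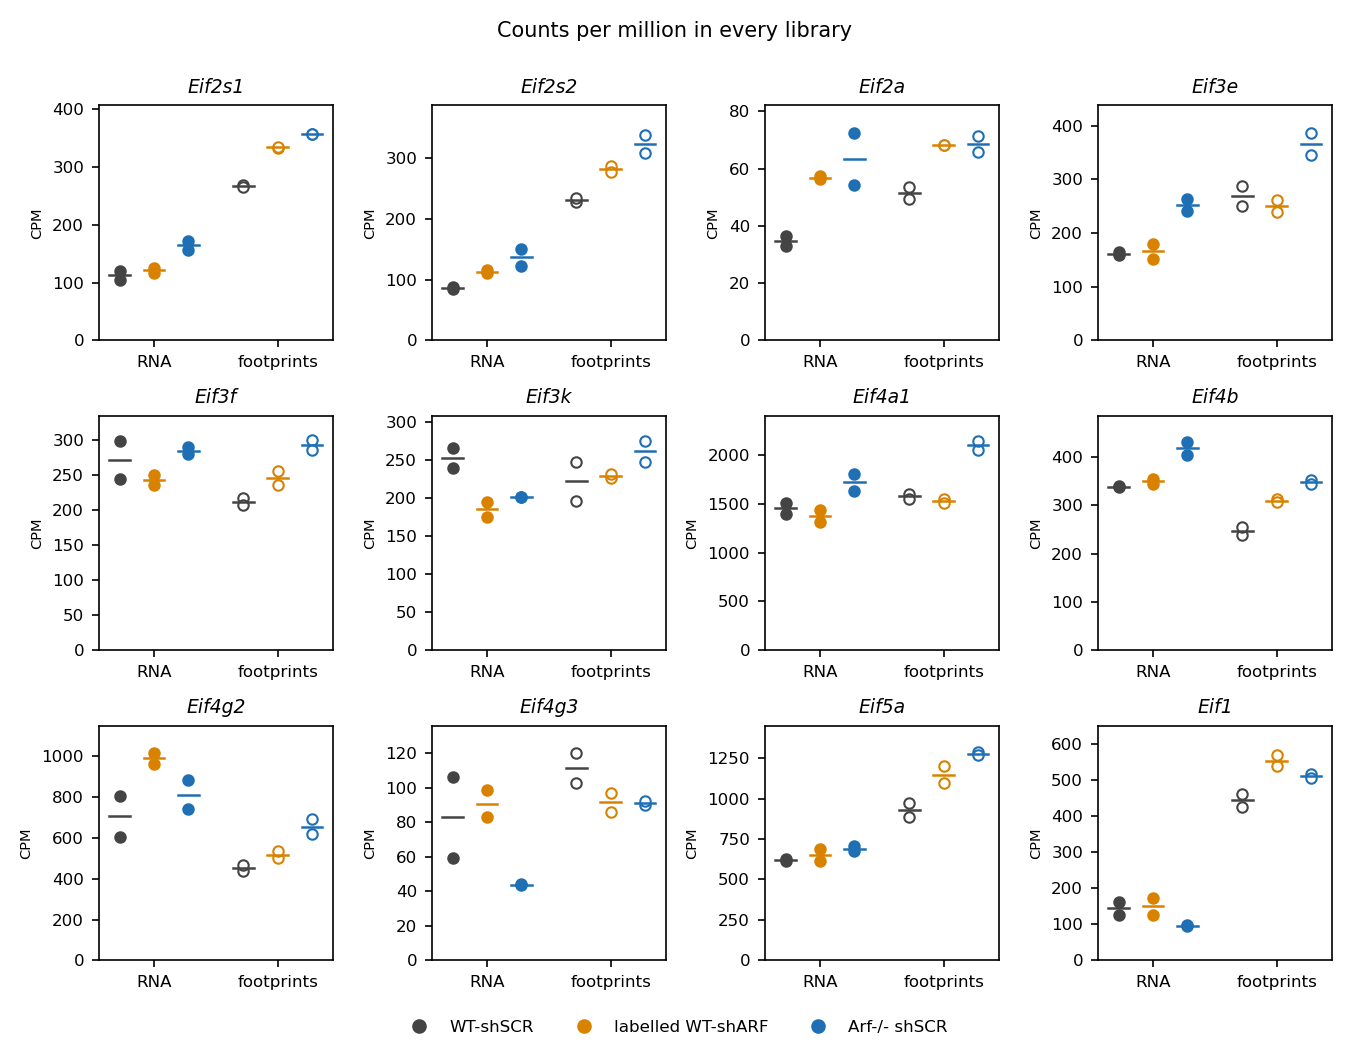
CPM of 12 initiation factor genes in every library, with RNA as filled and footprints as open points, horizontal lines for the mean of the 2 replicates, and the groups WT-shSCR (grey), labelled WT-shARF (orange) and Arf-/- shSCR (blue). Each vertical axis starts at 0. Footprints of Eif3e and Eif4a1 are highest in Arf-/- shSCR, and footprints of Eif2s1, Eif4b and Eif5a lie above WT-shSCR in both other groups.

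The eIF4 genes gave 5 rises and 0 falls in footprints of Arf-/- shSCR among 11 tested (Eif4a1, Eif4a3, Eif4b, Eif4g2 and Eif4h), with a median of 0.30. Of all 10737 genes, 9.57% were called higher and 8.95% lower. By an unadjusted p under 0.05, 6 of the eIF4 genes were higher and 0 lower, against 1623 and 1594 of all genes. DESeq2 called 5 eIF4 genes higher and 0 lower. Eif4a1, the main helicase of the cap-binding complex, had footprints of 1596 and 1551 CPM in WT-shSCR, 1544 and 1510.4 CPM under the label and 2047 and 2139.5 CPM in Arf-/- shSCR. The Arf-/- shSCR libraries were the 2 highest, at a log2 difference of 0.42 (SE 0.07, adjusted p = 1.28e-05), and the label and WT-shSCR differed by -0.04. RNA of Eif4a1 was 1508 and 1393 CPM in WT-shSCR, 1436 and 1307 CPM under the label and 1801 and 1633 CPM in Arf-/- shSCR. Arf-/- shSCR was again highest, but the log2 difference of 0.24 (SE 0.14, adjusted p = 0.333) did not pass.

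Eif4a2 stood in contrast to its paralog, with RNA of 131 and 94.8 CPM in WT-shSCR, 90.6 and 124 CPM under the label and 133 and 109 CPM in Arf-/- shSCR. Footprints of Eif4a2 were 177 and 166 CPM in WT-shSCR, 161 and 144 CPM under the label and 170.4 and 152 CPM in Arf-/- shSCR. Arf-/- shSCR overlapped WT-shSCR in both assays, and its differences were 0.08 in RNA and -0.07 in footprints, neither of which passed. Eif4a3, which serves in the exon junction complex, had footprints of 106 and 79.2 CPM in WT-shSCR, 131 and 132 CPM under the label and 159 and 152 CPM in Arf-/- shSCR. Its difference was the greatest of the 15 called in Arf-/- shSCR, a log2 difference of 0.75 (SE 0.14, adjusted p = 0.000236), with a log2 difference of 0.50 (SE 0.15, adjusted p = 0.0244) under the label, where the call was lost with DESeq2 (adjusted p = 0.0791), without WT-shSCR replicate 2 and without either labelled library. RNA of Eif4a3 was 124 and 105 CPM in WT-shSCR, 131 and 128 CPM under the label and 171 and 155 CPM in Arf-/- shSCR, with 0.50 in Arf-/- shSCR (adjusted p = 0.0823).

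The helicase cofactors Eif4b and Eif4h rose in footprints in both comparisons. Eif4b footprints were 239 and 255 CPM in WT-shSCR, 312 and 308 CPM under the label and 352 and 345 CPM in Arf-/- shSCR, without overlap among the 3 groups. Its RNA was 337 and 341 CPM in WT-shSCR, 355 and 344 CPM under the label and 432 and 404 CPM in Arf-/- shSCR, where the label lay just above WT-shSCR and Arf-/- shSCR was highest, and the log2 difference of 0.30 (SE 0.14, adjusted p = 0.224) did not pass. In footprints the differences were 0.51 in Arf-/- shSCR (adjusted p = 0.000413) and 0.33 under the label (adjusted p = 0.0245). Eif4h had footprints of 278 and 256 CPM in WT-shSCR, 374 and 381 CPM under the label and 356 and 383 CPM in Arf-/- shSCR. Here the label and Arf-/- shSCR overlapped and both lay above WT-shSCR, by 0.50 and 0.48, next to RNA differences of 0.05 and 0.14.

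Cap binding and the scaffold gave no called change in RNA or footprints. These values do not measure protein. By immunoblot, the paper reports more eIF4G1 protein and unchanged eIF4E after loss of ARF. It reports no change of eIF4G1 mRNA and no translational rise. Eif4e, the cap-binding protein, had RNA of 64.4 and 67.1 CPM in WT-shSCR, 74.5 and 78.5 CPM under the label and 89.2 and 74.7 CPM in Arf-/- shSCR. Footprints of Eif4e were 87.8 and 106 CPM in WT-shSCR, 109 and 119.9 CPM under the label and 125 and 112 CPM in Arf-/- shSCR. All values outside WT-shSCR were higher than both WT-shSCR values, and the differences of 0.32 in RNA and 0.30 in footprints of Arf-/- shSCR had adjusted p of 0.371 and 0.157. Eif4g1 had RNA of 986 and 1125 CPM in WT-shSCR, 1122 and 1180.0 CPM under the label and 1179 and 1001 CPM in Arf-/- shSCR. Footprints of Eif4g1 were 601 and 630.3 CPM in WT-shSCR, 603 and 616 CPM under the label and 599 and 667 CPM in Arf-/- shSCR. The 3 groups overlapped in both assays. Its difference in Arf-/- shSCR was 0.05 (SE 0.15) in RNA and 0.05 (SE 0.09) in footprints. Eif4e2 likewise gave no call, with footprints of 82.3 and 69.8 CPM in WT-shSCR, 89.8 and 78.5 CPM under the label and 79.5 and 80.0 CPM in Arf-/- shSCR. Its RNA was 139 and 123 CPM in WT-shSCR, 136 and 133 CPM under the label and 126 and 131 CPM in Arf-/- shSCR.

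The 2 relatives of the scaffold behaved unlike it and unlike each other. Eif4g2 encodes a protein that lacks the eIF4E-binding region and serves cap-independent initiation. Its RNA was 605 and 805 CPM in WT-shSCR, 1015 and 959.9 CPM under the label and 881 and 741 CPM in Arf-/- shSCR. Both labelled libraries were above the rest, for a log2 difference of 0.48 (SE 0.13, adjusted p = 0.0244), lost without either labelled library, without WT-shSCR replicate 1, and with all 3 groups in one fit (adjusted p = 0.057). Footprints of Eif4g2 were 436 and 467 CPM in WT-shSCR, 499 and 533 CPM under the label and 616 and 692 CPM in Arf-/- shSCR. Now the Arf-/- shSCR libraries were highest, with a log2 difference of 0.55 (SE 0.09, adjusted p = 2.55e-05), and the log2 difference of 0.20 (SE 0.09, adjusted p = 0.158) under the label did not pass. Eif4g3, a scaffold paralog, had RNA of 59.5 and 106 CPM in WT-shSCR, 98.6 and 82.9 CPM under the label and 44.1 and 43.8 CPM in Arf-/- shSCR. The Arf-/- shSCR libraries were the lowest and close to each other, while the WT-shSCR replicates differed widely, and the log2 difference of -0.89 (SE 0.25, adjusted p = 0.0314) was lost without WT-shSCR replicate 2 (-0.43, adjusted p = 0.437) and with DESeq2 (adjusted p = 0.13). Footprints of Eif4g3 were 120.0 and 103 CPM in WT-shSCR, 86.2 and 97.2 CPM under the label and 89.8 and 92.4 CPM in Arf-/- shSCR, with -0.28 in Arf-/- shSCR, which did not pass.

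Among the other factors, Eif2a, a tRNA-binding factor unrelated to eIF2 despite its symbol, rose in RNA in both comparisons. Its RNA was 36.5 and 32.9 CPM in WT-shSCR, 56.3 and 57.4 CPM under the label and 54.2 and 72.6 CPM in Arf-/- shSCR. The 4 libraries outside WT-shSCR were all above it, for a log2 difference of 0.86 (SE 0.23, adjusted p = 0.0286) in Arf-/- shSCR and a log2 difference of 0.70 (SE 0.21, adjusted p = 0.0416) under the label. Without either WT-shSCR replicate, or with DESeq2, both calls were lost, and likewise without Arf-/- shSCR replicate 2 for the former and without either labelled library, without the filter on low counts or with all 3 groups in one fit for the latter. Footprints of Eif2a were 53.4 and 49.3 CPM in WT-shSCR, 68.2 and 68.2 CPM under the label and 65.6 and 71.5 CPM in Arf-/- shSCR, also apart from WT-shSCR, at 0.43 and 0.41, with adjusted p of 0.0852 and 0.174.

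Eif1 under the label and Eif1ax in both comparisons, which act in start codon selection, rose in footprints without a called RNA change. Eif1 had RNA of 126 and 162 CPM in WT-shSCR, 172 and 127 CPM under the label and 97.9 and 94.0 CPM in Arf-/- shSCR. Footprints of Eif1 were 425 and 462 CPM in WT-shSCR, 568 and 539 CPM under the label and 516 and 505 CPM in Arf-/- shSCR. RNA was lowest in Arf-/- shSCR (-0.58, adjusted p = 0.0571), whereas footprints were lowest in WT-shSCR, with a log2 difference of 0.32 (SE 0.09, adjusted p = 0.0123) under the label and 0.22 (adjusted p = 0.096) in Arf-/- shSCR. Eif1ax, the X-linked eIF1A gene, had footprints of 109 and 107 CPM in WT-shSCR, 153 and 147 CPM under the label and 157 and 160.5 CPM in Arf-/- shSCR. WT-shSCR was apart from the other groups, by 0.57 in Arf-/- shSCR (adjusted p = 0.00175) and 0.47 under the label (adjusted p = 0.0159). RNA of Eif1ax was 48.9 and 49.7 CPM in WT-shSCR, 66.5 and 71.9 CPM under the label and 62.6 and 48.5 CPM in Arf-/- shSCR, and no difference passed.

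Eif5, which triggers GTP hydrolysis by eIF2, had RNA of 87.0 and 102 CPM in WT-shSCR, 138 and 142 CPM under the label and 141 and 111 CPM in Arf-/- shSCR. It was lowest in WT-shSCR, and the log2 difference of 0.58 (SE 0.16, adjusted p = 0.0266) under the label passed but was lost without either labelled library, without WT-shSCR replicate 1, with DESeq2 (adjusted p = 0.0925) and with all 3 groups in one fit. Footprints of Eif5 were 173 and 185 CPM in WT-shSCR, 182 and 206 CPM under the label and 215 and 223 CPM in Arf-/- shSCR, with overlap between the label and WT-shSCR. Eif5a had footprints of 885 and 974 CPM in WT-shSCR, 1094 and 1200.0 CPM under the label and 1285 and 1267 CPM in Arf-/- shSCR. They were higher in both other groups, by a log2 difference of 0.47 (SE 0.08, adjusted p = 1.89e-05) in Arf-/- shSCR and a log2 difference of 0.31 (SE 0.07, adjusted p = 0.00531) under the label, while its RNA of 626 and 617 CPM in WT-shSCR, 686 and 613 CPM under the label and 678 and 704 CPM in Arf-/- shSCR overlapped between WT-shSCR and the label.

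Set directly against the libraries labelled WT-shARF, Arf-/- shSCR MEFs had higher footprints for 3 of 44 genes and lower for 0, against 3.93% and 4.3% of 10941 genes. By an unadjusted p under 0.05 there were 10 higher and 4 lower, against 1152 and 1146 of all genes tested. DESeq2 called 3 of the initiation factor genes higher and 0 lower. Eif3e had a log2 difference of 0.55 (SE 0.09, adjusted p = 0.000671), Eif4a1 a log2 difference of 0.46 (SE 0.05, adjusted p = 1.38e-05) and Eif4g2 a log2 difference of 0.34 (SE 0.08, adjusted p = 0.0076). In RNA 1 of 42 was higher, Eif3e, by 0.59, and 1 lower, Eif4g3, at -1.04, against 1.38% and 1.19% of 10632 genes. Without either labelled library all of these calls were lost, and of all genes 0 were then called higher and 0 or 1 lower in footprints. Without Arf-/- shSCR replicate 2 the RNA call of Eif3e and the footprint call of Eif4g2 were lost as well.

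The change in TE asks whether footprints moved beyond RNA, and was tested as the interaction of assay and group. No initiation factor gene passed in any of the 3 comparisons, so none of the footprint rises above was a called change of TE. Among all genes, 0.0884% passed above 0 and 0.106% below in Arf-/- shSCR against WT-shSCR (11314 tested), 0.0354% and 0% under the label (11289 tested), and 0.0172% and 0.0258% between the 2 (11632 tested). With edgeR at an unadjusted p under 0.05, initiation factor genes above and below 0 numbered 4 and 0 in Arf-/- shSCR, 3 and 1 under the label and 3 and 2 between these groups. Over all genes tested the numbers were 326 and 447, 430 and 321, and 431 and 449. DESeq2, which adjusted over only 1616, 912 and 923 genes in that order, called 1, 0 and 1 initiation factor genes above 0 and none below.

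**Figure D5:**
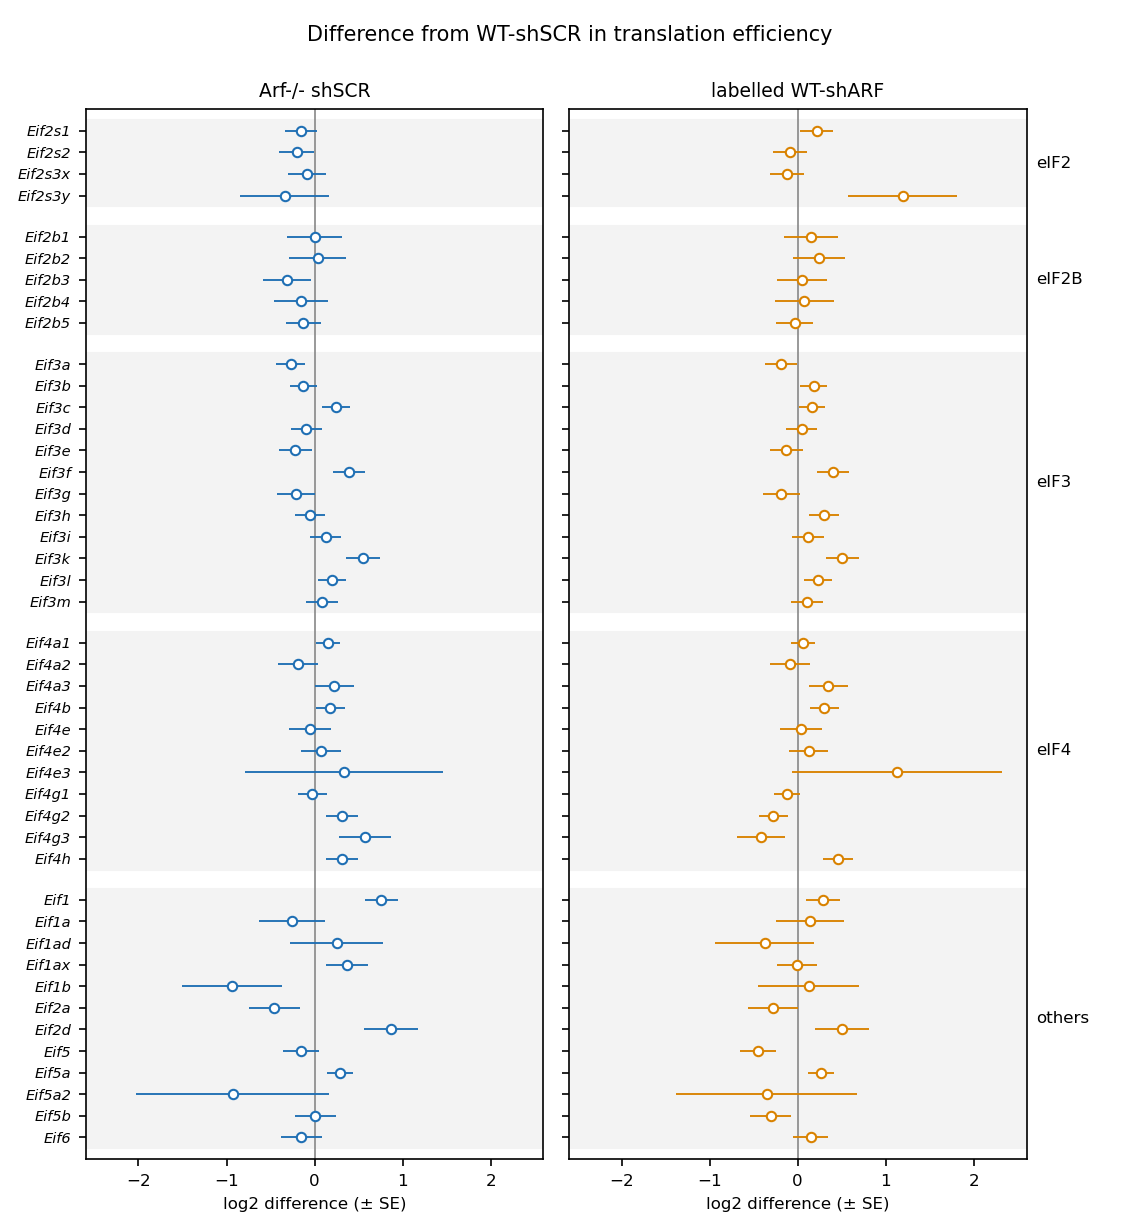
Log2 difference in TE from WT-shSCR with its standard error for the 44 tested initiation factor genes, in Arf-/- shSCR MEFs (blue) and in the libraries labelled WT-shARF (orange). No point is filled, since none passed an adjusted p under 0.05. In Arf-/- shSCR 22 points lie above 0 and 22 below.

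In Arf-/- shSCR MEFs, TE differences were above 0 for 22 of 44 genes and the median was -0.01, against -0.04 for all genes and 0.47 for 79 ribosomal protein genes. The even division depended on the settings, since 30 of 45 were above 0 with a median of 0.13 without the filter on low counts, 25 of 44 with all 3 groups in one fit, and 26 of 44 without Arf-/- shSCR replicate 1 or 25 of 44 without WT-shSCR replicate 1, where the medians were 0.03 and 0.04. Under the label 28 of 44 were above 0 with a median of 0.11, against 0.01 for all genes and 0.43 for ribosomal protein genes, and the median was 0.05 without WT-shSCR replicate 2 and 0.06 without labelled replicate 2. The median standard error of an initiation factor gene was 0.21 in Arf-/- shSCR and 0.20 under the label, next to footprint differences of 0.27 to 0.75 among the genes called above. All 4 eIF2 genes were below 0 in Arf-/- shSCR, from -0.34 to -0.09, and the 12 eIF3 genes were divided evenly.

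Eif1 was the nearest to a call, at 0.76 (SE 0.19) with the lowest adjusted p among these genes, 0.131, and DESeq2 gave 0.00514 for it. The rise came with RNA that was lower and footprints that were higher than in WT-shSCR, neither of which passed. Between Arf-/- shSCR and the label, the gene that DESeq2 called was Eif4g2, at 0.63 (SE 0.14, adjusted p = 0.147 by edgeR). Eif4g1, the cap scaffold, stood at -0.02 (SE 0.16) in Arf-/- shSCR and -0.12 (SE 0.15) under the label. Its partner Eif4e was at -0.05 (SE 0.24) and 0.04 (SE 0.24).

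Eif3e, Eif3f, Eif3h and Eif4b, which the study's 5′-TOP list leaves out, gave no called TE difference. In Arf-/- shSCR the values were -0.22 for Eif3e, 0.39 for Eif3f, -0.05 for Eif3h and 0.18 for Eif4b. Under the label they were -0.13, 0.40, 0.30 and 0.30 in the same order. Standard errors of these values ran from 0.16 to 0.19. Genes with a pyrimidine run at an annotated start had a median TE difference of -0.02 in Arf-/- shSCR and 0.19 under the label, and those with a start but no run 0.01 and 0.08.

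Genes that act around the initiation factors were counted from fixed lists. The 22 tested regulators of initiation included the eIF2α kinases, the eIF4E-binding proteins, Pabpc1 and Larp1. In footprints of Arf-/- shSCR, 3 of the 22 rose (Abce1, Ddx3x and Pabpc1), against 9.57% of all genes tested. Of the 22, 1 fell (Pdcd4, an inhibitor of eIF4A, by 1.08 on the log2 scale), against 8.95% of all genes. Under the label 3 rose (Abce1, Ddx3x and Eif4ebp1, an inhibitor of eIF4E) and 0 fell, against 5.63% and 5.5% of all genes. In RNA, Abce1, a ribosome recycling factor, and Ddx3x, a helicase, rose in Arf-/- shSCR by 0.70 and 0.88. These were 2 of the 22, with 0 lower, against 3.94% and 3.99% of all genes. Of 9 elongation and termination genes, 7 rose in footprints of Arf-/- shSCR and 6 under the label, with medians of 0.42 and 0.32. The shares of all genes that rose were 9.57% and 5.63%. Eef1b2, an exchange factor of eEF1A, was the 1 of the 9 called in TE, at 0.75 in Arf-/- shSCR (adjusted p = 0.0393). Of all genes, 0.0884% were called above 0 there.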

How the data were processed

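RNAseq and ribosome profiling libraries were analysed from the counts per gene that the authors deposited. According to the methods and processing notes, adapters were clipped with fastx_clipper, UMIs extracted with UMI-tools, barcodes cut off with cutadapt, unwanted RNA removed with Bowtie2, reads mapped to mm10 with TopHat and counted over coding sequence with HTSeq, with no step named that collapses UMI duplicates. Rows that name no gene stayed out of library sizes. Alignments without a unique place made up 79.2% to 81.4% of all rows' counts in RNAseq and 46.3% to 52.9% in ribosome profiling, and those off coding sequence 14.9% to 15.5% and 9.41% to 12%. Depth on genes was 1578627 to 3989908 counts in RNAseq and 2544319 to 5157572 in ribosome profiling.

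The libraries of each comparison were fitted in edgeR 4.0.16 (R 4.3.3) with filterByExpr, TMM factors and the quasi-likelihood test, and TE was tested as an assay by condition interaction. Adjusted p-values (Benjamini-Hochberg) cover all genes tested in edgeR, and in DESeq2 those left by its default filter, with a threshold of 0.05. The standard error is the log2 difference over the root of F. Displayed CPM use TMM factors over the 6 libraries of an assay. The code was tested on simulated data. Coordinates are from GENCODE vM21 and RefSeq (GRCm38.p6, the assembly of mm10), and coding lengths are unions of coding exons. Alternatives were DESeq2 1.42.0, other scaling factors, no filter, one fit of all groups, a replicate block and leaving out each replicate.

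The genes and all lists were chosen with earlier results of these data known. Per-library values are given for the genes with the smallest adjusted p in each comparison (up to 8), Eif4g1, Eif4e, Eif4a1, Eif3e, Eif3f, Eif3h and Eif4b (taken as 5′-TOP), the eIF2 subunits and the extremes of baseline TE in each complex. Per-library values of Eif2b2 were added, and Eif3d and Eif3m named, after their values were seen.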

Additional observations from a re-analysis of the deposited data

How the results depend on the processing

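With DESeq2, 1 initiation factor gene was higher and 0 lower in RNA of Arf-/- shSCR and likewise under the WT-shARF label, and TE was called above 0 for 1 gene in Arf-/- shSCR against WT-shSCR and 1 against the label. Fitting all 3 groups at once gave 5 higher and 2 lower in RNA of Arf-/- shSCR, 0 and 0 under the label, and 1 TE call in Arf-/- shSCR. Without the filter on low counts, 0 were lower in RNA under the label and 2 lower in Arf-/- shSCR against the label, TE was called above 0 for 1 gene in Arf-/- shSCR, with a median of 0.13 in place of -0.01, and for 2 genes against the label. These TE calls were for Eif1 against WT-shSCR and for Eif4g2 and Eif4g3 against the label. The cause of these shifts was not tested. Replicate numbers mark no shared animal or day in the labels, and deviations of same-numbered libraries correlated by -0.03 to 0.06. These correlations cannot settle whether same-numbered libraries shared a culture or day, since counting noise in single genes can hide it. A fit with the replicate number as a block gave 2 lower in RNA under the label and 0 higher in RNA of Arf-/- shSCR against the label, and left every other count of called initiation factor genes within 1.5 times. At an unadjusted p under 0.05 it gave 2 genes lower in place of 4 in RNA of Arf-/- shSCR, 1 in place of 0 in footprints there, and 1 in place of 2 below 0 for TE between Arf-/- shSCR and the label. Other scaling factors left every count of initiation factor genes within 1.5 times.

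Leaving out 1 library at a time gave 0 to 4 higher and 0 to 1 lower in RNA of Arf-/- shSCR, 0 to 4 and 0 to 1 under the label, and 0 to 1 and 0 to 3 between these groups. In footprints 0 to 13, 1 to 8 and 0 to 3 genes were higher in the same order, with medians of 0.26 to 0.33 in Arf-/- shSCR and 0.17 to 0.25 under the label. For TE, 0 to 1 genes were called above 0 between Arf-/- shSCR and the label, and in WT-shSCR 12 to 14 lay above and 6 to 11 below. The TE difference of Eif4g1 in Arf-/- shSCR ran from -0.19 to 0.16 and changed sign without Arf-/- shSCR replicate 1 (adjusted p = 0.974).

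Among all genes, DESeq2 called 208 higher and 206 lower in RNA of Arf-/- shSCR where edgeR called 420 and 425, 115 and 176 under the label (327 and 438), 81 lower between these groups (126), 630 and 523 in footprints of Arf-/- shSCR (1027 and 961), 377 and 314 under the label (580 and 567), 265 and 288 between the groups (430 and 470), and 1327 and 1436 for TE in WT-shSCR (2071 and 2163). For TE it called 65 genes above 0 in Arf-/- shSCR (10), 51 above and 4 below under the label (4 and 0), and 13 and 14 between the groups (2 and 3). These calls are not over the same genes. For TE, DESeq2 adjusted over 1616, 912 and 923 genes in that order, and edgeR over 11314, 11289 and 11632. Under the label DESeq2 adjusted over 5037 genes in RNA and 6013 in footprints, and edgeR over 10503 and 10307. Without the filter TE calls were 83 and 40, 30 and 10, and 26 and 51, and RNA calls between the groups 339 and 278. One fit of all groups gave 217 and 280 in RNA under the label and 38 TE calls above 0 in Arf-/- shSCR and 0 under the label. The block gave 81 lower in RNA between the groups, and TE calls of 28 and 7 under the label and 4 and 10 between the groups.

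With 2 libraries a group and 26759 to 67970 footprint and 15926 to 46072 RNA counts on these genes, TE differences carry a median standard error of 0.18 to 0.21, and genes with few counts, such as Eif4e3, Eif5a2 and Eif2s3y, far more.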
